A study of Mus musculus with 6 samples.

Results

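Muscle cells anchor their contractile filaments at protein plaques, and the 41 genes described here encode the cytoplasmic parts of those plaques. They were taken by symbol from the deposited table: genes of the adhesion plaque under the membrane, of the dense bodies inside smooth muscle cells, LIM domain proteins, scaffolds that bind actin, and regulators of myosin phosphatase, with integrins and sarcomere chains left out. All 41 were found among the 24964 gene symbols of the table, and all 41 were tested, because each averaged at least 1 FPKM across the 6 libraries. FPKM is the number of fragments counted on a gene, scaled to gene length and library size. RNA was sequenced from mouse uterine tissue around the implantation sites on gestation day 13, in 3 control libraries and in 3 libraries labelled as carrying a myometrial knockout of PGR, the progesterone receptor; the myometrium is the muscle wall of the uterus. Mouse strain, the alleles, the promoter that drove the deletion, maternal age and whether each library came from a separate animal are details not given in these sources. P-values therefore measure the spread between these libraries only, which may be technical.

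In smooth muscle, dense plaques at the membrane and dense bodies in the cytoplasm hold actin filaments in the way that Z lines do in striated muscle. Talin, vinculin, integrin-linked kinase with its partners, and tensins join integrins to actin at the membrane. Alpha-actinin, filamin, palladin and PDZ-LIM proteins crosslink or organise the filaments. Many of these genes are known targets of serum response factor and its myocardin family of coactivators, and the pregnant myometrium is known to rebuild its adhesion plaques as it is stretched.

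The table sums to between 357126 and 377091 FPKM per library, and the depth of single libraries is unknown. Pgr, the targeted gene, was not lower under the label. It was at 9.72, 8.33 and 12.08 FPKM in control tissue against 11.30, 12.41 and 7.73 FPKM under the deficiency label (limma adjusted p = 0.91), and the sign of its difference was negative in 5 of 15 fits. The labels do not say which part of the gene was deleted, and other cells of the uterus are known to express Pgr. The second group is therefore called the libraries labelled deficient, or deficient for short, and every direction rests on that label. The tissue held muscle and other layers: the 10 smooth muscle markers summed to between 9645 and 11579 FPKM in the controls, 10 epithelial markers to between 782.5 and 890.2 FPKM, and 9 trophoblast markers to at most 1.74 FPKM in any library. Control 3 and deficient 3 were the least like their groups, with log2 correlations across genes of 0.982 and 0.983 to the other controls and of 0.971 and 0.976 to the other deficient libraries, against 0.992 and 0.991 between the first and second.

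Of the 41 genes, 14 fell (34.1%) and 1 rose (2.44%), while the other 26 missed the threshold. The test was limma on log2(FPKM + 1), fitted over 12500 genes, with Benjamini-Hochberg adjustment over all of them and a threshold of 0.05. In the same fit 1.99% of all genes tested were called lower and 1.34% higher, 249 and 168 genes, a split that became 211 and 218 after rescaling every library to a common sum, 391 and 123 with median-of-ratios scaling and 338 and 131 with quantile normalization. The median difference was -0.33 over the 41 genes and 0.06 over all genes tested, and 31 of the 41 differences were negative. In 22 of the 41 genes (53.7%) every deficient library lay below every control, against 8.16% of all genes tested, and in 4 (9.76%) every deficient library lay above, against 20.8% of all genes.

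The summed level of the 41 genes was 3894, 3723 and 3412 FPKM in the controls and 2000, 2370 and 2138 FPKM in deficient tissue. Csrp1 alone made up between 25.4% and 26.1% of that sum in the controls and between 17.4% and 18.0% in the deficient libraries. Without Csrp1 the groups still did not overlap, at between 2544 and 2880 FPKM in the controls and between 1653 and 1943 FPKM in deficient tissue.

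**Figure D1:**
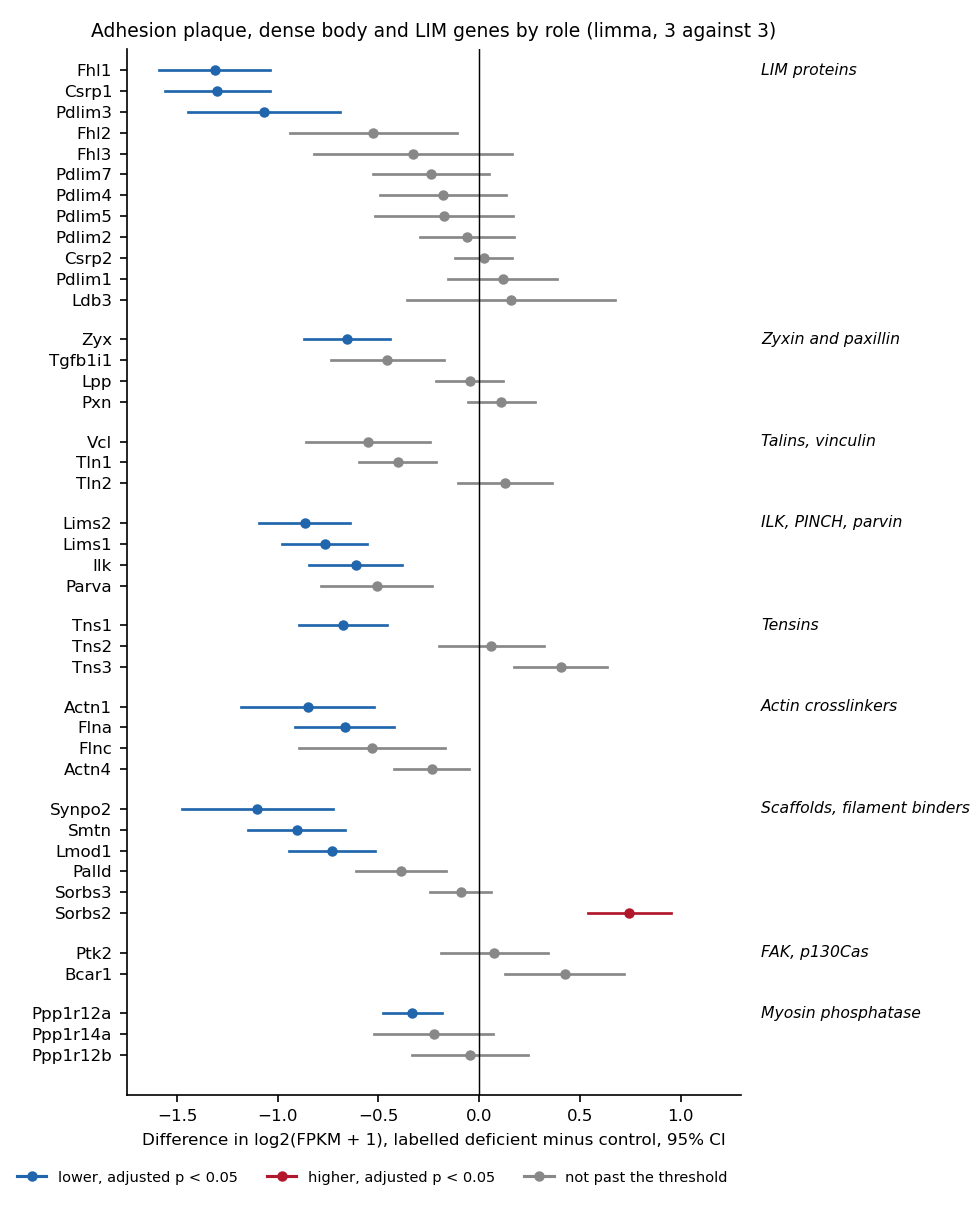
Difference in log2(FPKM + 1) between the libraries labelled deficient and the controls for each of the 41 genes, grouped by role, with 95% confidence intervals from limma (n = 3 each). The 14 genes past the threshold on the lower side lie between -0.33 and -1.31, and Sorbs2 is the single gene past it on the higher side, at 0.75.

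Among the 12 LIM proteins, 3 fell, 9 did not pass and 0 rose. The largest falls were those of Csrp1 and Fhl1. Csrp1 (chromosome 1, 135720061 to 135752232, plus strand, GRCm38) encodes a LIM protein that binds alpha-actinin and zyxin on actin filaments. Its level was 1014, 954.1 and 868.2 FPKM in the controls and 347.5, 427.2 and 376.4 FPKM in deficient tissue. The groups were far apart, and the mean went from 945.6 ± 73.5 to 383.7 ± 40.3 FPKM (SD, n = 3 each). The log2 difference was -1.30, with an SE of 0.11 and a limma adjusted p of 0.0044. It ranked as the 30th most abundant gene of the table in the controls and as the 113th in the deficient libraries.

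Fhl1 (chromosome X, 56731787 to 56793346, plus strand), a LIM-only protein abundant in muscle, was at 310.9, 294.6 and 283.3 FPKM in control tissue against 101.0, 133.1 and 123.6 FPKM in deficient tissue. Every deficient library lay far below every control. The deficient mean was 40.2% of the control mean (log2 difference -1.31, SE 0.11, limma adjusted p = 0.0045). Pdlim3 (chromosome 8, 45885461 to 45919548, plus strand), a PDZ-LIM protein that binds alpha-actinin at muscle Z lines, was at 191.0, 172.9 and 145.5 FPKM in control tissue against 67.0, 95.4 and 79.8 FPKM in deficient tissue. The groups did not overlap, and the log2 difference was -1.07 (SE 0.16, limma adjusted p = 0.023). Csrp1 and Fhl1 passed in all 15 fits run, while Pdlim3 did not pass without control 1, control 2 or deficient 1 (limma adjusted p up to 0.099). Pdlim3 also missed with no filter (limma adjusted p = 0.095) and with the replicate number as a block (0.082).

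The other LIM proteins moved less. Csrp2, the close relative of Csrp1, was at 26.3, 25.6 and 25.2 FPKM in control tissue against 27.0, 24.9 and 26.4 FPKM in deficient tissue, so its values interleaved, and the interval of its log2 difference ran from -0.12 to 0.16. Fhl2, a LIM-only cofactor of transcription factors, was at 13.8 ± 2.3 and 9.30 ± 2.09 FPKM (SD, n = 3 each), with a difference of -0.53 (limma adjusted p = 0.16). Fhl3 was at 11.1 ± 3.2 and 8.48 ± 1.39 FPKM, and its control values alone spread from 8.17 to 14.6 FPKM. The differences of the PDZ-LIM genes Pdlim1, Pdlim2, Pdlim4, Pdlim5 and Pdlim7 lay between -0.24 and 0.12, and in each of the 5 the groups overlapped. Ldb3, a PDZ-LIM protein of striated muscle Z lines, was low in every library, between 1.48 and 3.33 FPKM, and its interval from -0.36 to 0.67 leaves its direction undetermined.

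In the zyxin and paxillin families, 1 of 4 genes fell. Zyx (chromosome 6, 42349630 to 42360213, plus strand) encodes zyxin, which is drawn to actin under tension. It was at 97.4, 105.1 and 90.2 FPKM in control tissue against 56.1, 64.0 and 64.7 FPKM in deficient tissue. Every control exceeded every deficient library, and the log2 difference was -0.66 (SE 0.09, limma adjusted p = 0.019). Lpp, a zyxin relative abundant in smooth muscle, was at 17.5 ± 0.5 and 16.9 ± 1.2 FPKM, with an interval from -0.21 to 0.12. Pxn, the adaptor paxillin, was at 35.3 ± 2.4 and 38.1 ± 0.6 FPKM, with a limma adjusted p of 0.41. Tgfb1i1, a paxillin relative of smooth muscle, was at 55.8, 54.3 and 47.2 FPKM in control tissue against 32.6, 42.4 and 39.2 FPKM in deficient tissue. Its groups did not overlap, but it missed the threshold (-0.46, limma adjusted p = 0.099) and passed only with median-of-ratios scaling. Zyx did not pass with any of control 1, control 2, deficient 1 and deficient 2 left out (highest limma adjusted p 0.092).

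None of the 3 genes of the talin and vinculin link passed with limma, although 2 of them had an unadjusted p under 0.05. Counts at an unadjusted p, here and below, lack the share of all genes tested beside them and carry no claim. Tln1, the talin that activates integrins and ties them to actin, was at 75.6, 72.9 and 69.3 FPKM in control tissue against 53.0, 59.7 and 51.3 FPKM in deficient tissue. Vcl, vinculin, which binds talin and actin, was at 89.9, 90.1 and 68.8 FPKM in control tissue against 52.9, 61.8 and 53.2 FPKM in deficient tissue. Both genes lay lower in every deficient library than in any control. For Tln1 the difference was -0.40 (limma adjusted p = 0.051), which was below the threshold with a minimum mean of 5 FPKM, with median-of-ratios scaling, with quantile normalization and without control 3 and deficient 3 together. For Vcl it was -0.55 (limma adjusted p = 0.079), and 0.037 without control 3, the lowest of the controls. Tln2, the second talin, lay near 1 FPKM in every library, at 1.13 ± 0.01 and 1.34 ± 0.23 FPKM.

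Of the 4 genes of the complex of integrin-linked kinase, PINCH and parvin, 3 fell, and Parva was lower without passing. The complex sits on integrin tails and joins them to actin. Ilk, the pseudokinase at its centre (chromosome 7, 105736592 to 105742925, plus strand), was at 231.5, 227.9 and 203.4 FPKM in control tissue against 139.7, 159.6 and 133.6 FPKM in deficient tissue. The lowest control lay above the highest deficient library, and the log2 difference was -0.61 (SE 0.10, limma adjusted p = 0.028).

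The PINCH genes bind the kinase and fell together. Lims1 (chromosome 10, 58323466 to 58424691, plus strand) was at 31.2, 33.7 and 28.7 FPKM in control tissue against 16.7, 19.6 and 17.5 FPKM in deficient tissue (-0.77, SE 0.09, limma adjusted p = 0.011). Lims2 (chromosome 18, 31922290 to 31958619, plus strand) was at 49.0, 47.3 and 44.8 FPKM in control tissue against 23.5, 28.9 and 23.9 FPKM in deficient tissue (-0.87, SE 0.09, limma adjusted p = 0.0098). Neither gene overlapped between the groups. Parva, the parvin that carries the link to actin, was at 79.3, 72.1 and 63.1 FPKM in control tissue against 44.0, 52.9 and 52.8 FPKM in deficient tissue (-0.51, limma adjusted p = 0.075). With 1 library left out, Ilk and Lims1 did not pass without control 1, control 2 or deficient 1, and Lims2 without control 1 or control 2, with limma adjusted p up to 0.12, 0.061 and 0.056. So 0 of the 4 were called without control 1 or without control 2 and 1 was called without deficient 1.

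Of the 3 tensins, which bind integrin tails and actin, 1 fell and 2 did not pass. Tns1 (chromosome 1, 73910231 to 74124449, minus strand) was at 65.2, 56.8 and 64.6 FPKM in control tissue against 35.1, 41.4 and 39.1 FPKM in deficient tissue. Its groups were clearly separate, with a difference of -0.68 (SE 0.09, limma adjusted p = 0.018), and it did not pass without control 1 or deficient 1 (limma adjusted p up to 0.087). Tns3 was at 12.1, 10.7 and 11.2 FPKM in control tissue against 13.4, 16.9 and 15.8 FPKM in deficient tissue. Every deficient library was above every control for Tns3, and its difference of 0.40 did not pass (limma adjusted p = 0.086). Tns2 was at 29.0 ± 3.3 and 30.2 ± 3.0 FPKM, with values that interleaved.

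All 4 actin crosslinkers lay lower in every deficient library than in any control, and 2 of them fell. Flna, filamin A (chromosome X, 74223461 to 74249820, minus strand), was at 464.2, 411.2 and 405.1 FPKM in control tissue against 251.0, 300.5 and 254.7 FPKM in deficient tissue (-0.67, SE 0.10, limma adjusted p = 0.027). Actn1, an alpha-actinin of adhesions and dense bodies (chromosome 12, 80167547 to 80260371, minus strand), was at 176.4, 169.5 and 141.6 FPKM in control tissue against 83.5, 106.3 and 79.9 FPKM in deficient tissue (-0.85, SE 0.14, limma adjusted p = 0.030). In both genes deficient 2 was the highest of the deficient libraries and control 1 the highest control. Actn4, the second alpha-actinin of non-striated cells, was at 110.3 ± 7.0 and 93.6 ± 5.1 FPKM (-0.23, limma adjusted p = 0.16), and Flnc, the muscle filamin, at 37.1 ± 6.4 and 25.3 ± 3.8 FPKM (-0.53, limma adjusted p = 0.12). Flna did not pass without control 1, control 2, control 3 or deficient 1 (limma adjusted p up to 0.11), nor Actn1 with control 1, control 2, deficient 1 or deficient 3 left out (up to 0.13). The number of crosslinkers called was 0 without control 1, control 2 or deficient 1 and 1 without control 3 or deficient 3.

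Of the 6 scaffolds and filament binders, 3 fell, 1 rose and 2 did not pass. Synpo2, an actin-bundling protein of muscle (chromosome 3, 123076519 to 123236149, minus strand), was at 49.5, 44.7 and 40.3 FPKM in control tissue against 16.2, 20.9 and 24.6 FPKM in deficient tissue. Smtn, smoothelin, a marker of contractile smooth muscle (chromosome 11, 3517523 to 3540612, minus strand), was at 191.2, 198.6 and 203.1 FPKM in control tissue against 91.0, 112.3 and 113.2 FPKM in deficient tissue. Neither gene overlapped between the groups, and the log2 differences were -1.10 (SE 0.16, limma adjusted p = 0.020) and -0.91 (SE 0.10, limma adjusted p = 0.010). Lmod1, the leiomodin that nucleates actin filaments in smooth muscle (chromosome 1, 135324807 to 135368065, plus strand), was at 57.2, 59.8 and 61.2 FPKM in control tissue against 32.7, 39.99 and 33.9 FPKM in deficient tissue (-0.73, SE 0.09, limma adjusted p = 0.014). Palld, palladin, which binds alpha-actinin, was at 44.2 ± 4.8 and 33.5 ± 1.5 FPKM (-0.39, limma adjusted p = 0.086, and 0.037 without control 3).

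Sorbs2, an adaptor that binds vinculin and actin-associated proteins (chromosome 8, 45507788 to 45827906, plus strand), was the gene that rose. It was at 8.88, 9.38 and 7.97 FPKM in control tissue against 16.6, 15.1 and 14.3 FPKM in deficient tissue. Every deficient library lay above every control, at a mean 1.76 times the control mean, and the log2 difference was 0.75 (SE 0.09, limma adjusted p = 0.011). Sorbs3, the vinculin-binding relative vinexin, was at 22.6 ± 1.0 and 21.2 ± 0.8 FPKM, and its interval ran from -0.24 to 0.06. In this role Synpo2 did not pass without control 1, control 2 or deficient 2, Lmod1 without control 1, control 2 or deficient 1, and Smtn without control 1 or control 2, with limma adjusted p up to 0.096, 0.069 and 0.056. Sorbs2 did not pass without control 1 (limma adjusted p = 0.058), and 0 of the 3 lower genes were called without control 1 or without control 2.

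Neither signalling gene passed with limma, and 1 had an unadjusted p under 0.05. Ptk2, focal adhesion kinase, was at 17.6, 16.5 and 16.6 FPKM in control tissue against 19.2, 19.9 and 14.995 FPKM in deficient tissue, on both sides of the controls. Bcar1, an adaptor phosphorylated when adhesions form, was at 11.4, 11.4 and 10.3 FPKM in control tissue against 15.7, 12.6 and 17.7 FPKM in deficient tissue. Bcar1 lay above every control in each deficient library, with a difference of 0.43 (limma adjusted p = 0.13).

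Among the 3 regulators of myosin phosphatase, the enzyme that reverses myosin light chain phosphorylation and relaxes smooth muscle, 1 fell. Ppp1r12a, the targeting subunit of the enzyme (chromosome 10, 108162193 to 108284475, plus strand), was at 27.5, 27.2 and 27.1 FPKM in control tissue against 21.0, 22.8 and 20.6 FPKM in deficient tissue. This was the smallest of the 14 falls, to 78.8% of control (-0.33, SE 0.06, limma adjusted p = 0.044). It did not pass in any of the 6 fits with 1 library left out (limma adjusted p between 0.072 and 0.17) or after rescaling to a common sum (0.081). Ppp1r12b, its relative of striated muscle, was at 4.77 ± 0.82 and 4.57 ± 0.37 FPKM, and Ppp1r14a, a smooth muscle inhibitor of the enzyme, at 55.3 ± 8.3 and 46.8 ± 3.5 FPKM (limma adjusted p = 0.34).

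**Figure D2:**
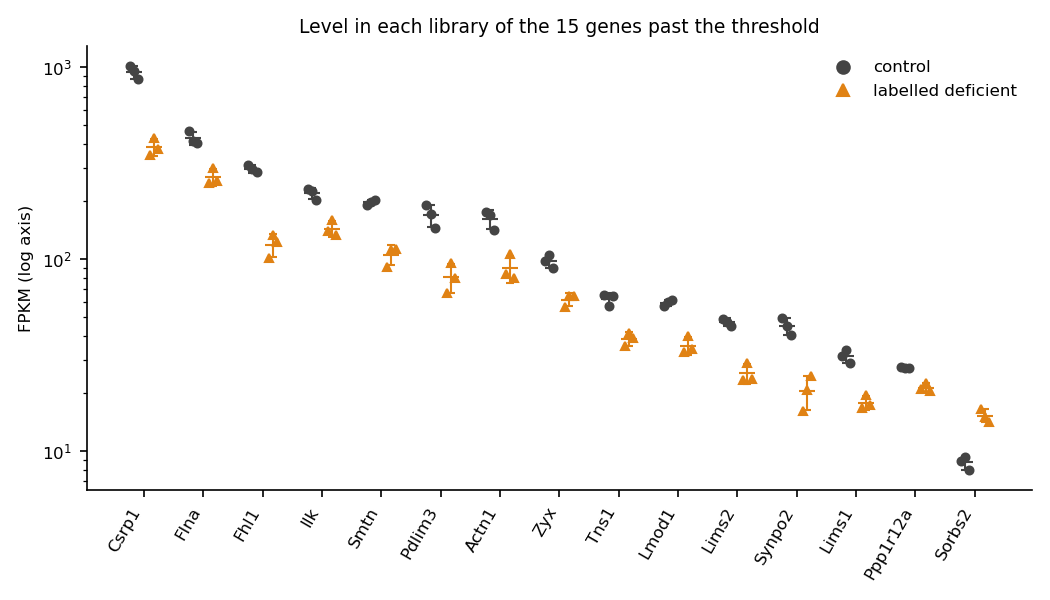
FPKM on a log axis in each library for the 15 genes past the threshold, ordered by control level, with controls as circles and libraries labelled deficient as triangles; horizontal marks are means and bars are SD (n = 3 each). In each of the 15 genes the groups are separate, from Csrp1 at 868.2 to 1014 FPKM in the controls down to Sorbs2, the single gene whose deficient libraries lie above the controls.

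How many genes passed depended on single libraries. With 1 library left out, the number that fell was 2 without control 1, 3 without control 2, 14 without control 3, 5 without deficient 1, 11 without deficient 2 and 12 without deficient 3. It was 17 without control 3 and deficient 3 together, a fit that called 658 of all genes tested lower. The differences themselves changed little: the median over the 41 genes lay between -0.44 and -0.30 in every fit, and for Csrp1 and Fhl1 the difference lay between -1.38 and -1.16 and between -1.40 and -1.20. Over all genes tested, the numbers called lower with 1 library left out were 73, 72, 208, 94, 144 and 242, in the same order. With all 6 libraries it was 249. In either direction, between 99 and 519 genes were called with 1 library left out and 1274 without control 3 and deficient 3 together, against 417 with all 6.

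**Figure D3:**
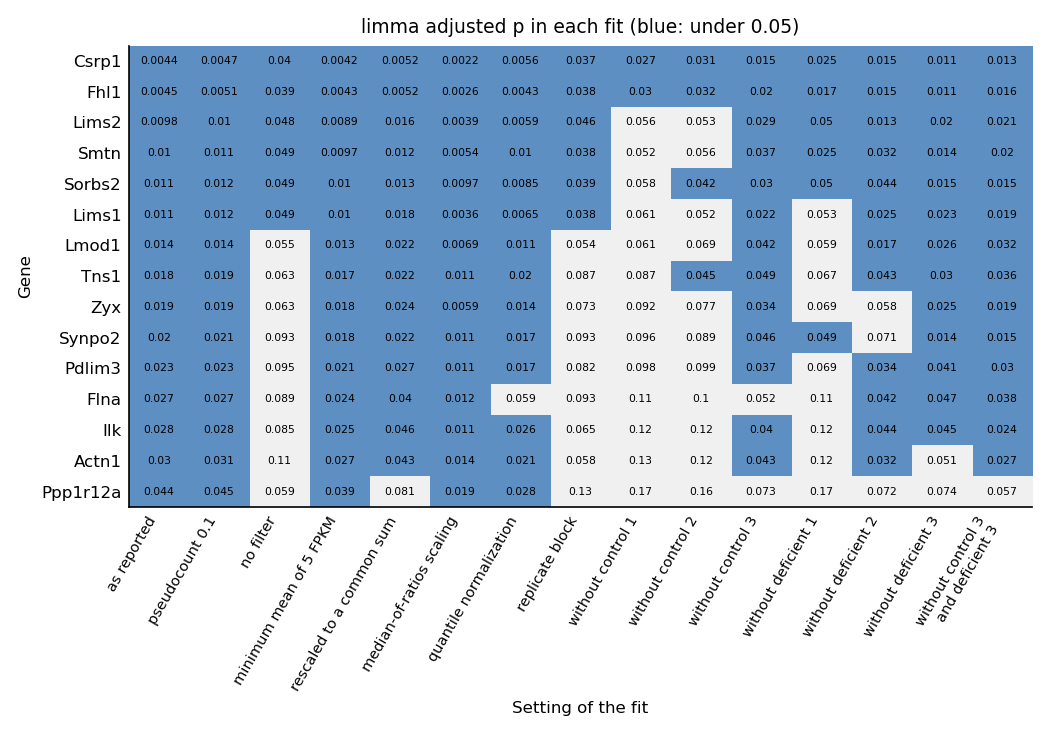
limma adjusted p of the 15 genes (rows) in the fit as reported and in 14 alternatives (columns), with cells in blue where it is under 0.05. Csrp1 and Fhl1 are blue in all 15 columns, and the fewest blue cells are in the column without control 1, where 2 genes pass.

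The genes that fell were mostly the abundant ones. Of the 8 genes with a control mean of at least 100 FPKM, 7 fell and Actn4 did not pass, with a median difference of -0.88. Of the 464 genes tested at that level, 8.62% were called lower, with a median of -0.03. Of the 12 genes between 40 and 100 FPKM, 5 fell (median -0.53), where 3.94% of genes at that level were called lower, and of the 21 below 40 FPKM, 2 fell (median -0.05), where 1.57% were. The rank correlation between control level and log2 difference over the 41 genes was -0.78. These genes share the same libraries and the same muscle tissue. The control values also enter both measures, which alone can push the correlation towards negative values. The 1 added to each FPKM value shrinks the differences of low genes. The correlation is therefore a description only.

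**Figure D4:**
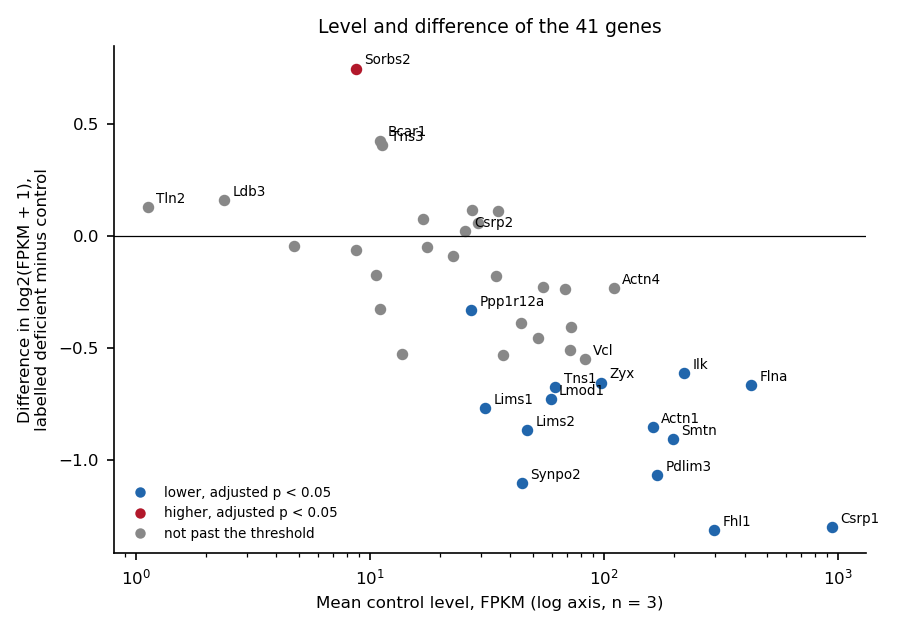
Mean control level in FPKM (log axis, n = 3) against the difference in log2(FPKM + 1) for the 41 genes, coloured by the limma call. Points slope downwards to the right: 7 of the 8 genes at 100 FPKM or more are lower past the threshold, and Sorbs2, which rose, has a control mean of 8.74 FPKM.

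Genes of one family were then compared inside each library, because a ratio of FPKM values in a library does not depend on how that library was scaled. In 8 of 10 pairs the ratios of the groups did not overlap. No share over other pairs of genes was computed. Every pair but Tln2 to Tln1 holds a gene past the threshold, so this count is not separate from those calls. The Csrp1 level was 38.6, 37.3 and 34.4 times that of Csrp2 in the controls and 12.9, 17.1 and 14.3 times in the deficient libraries. The ratio of Tns1 to Tns3 was 5.38, 5.32 and 5.75 in the controls and 2.61, 2.45 and 2.48 in the deficient libraries. In both pairs every deficient ratio was far below every control ratio, and the log2 differences were -1.33 and -1.13.

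The ratio of Actn1 to Actn4 went from 1.47 ± 0.08 to 0.957 ± 0.1 (SD, n = 3 each), so that Actn1 was the more abundant alpha-actinin in every control and Actn4 in deficient 1 and deficient 3. Fhl1 to Fhl2 went from 21.9 ± 3.2 to 13.0 ± 1.8, and Pdlim3 to Pdlim5 from 15.9 ± 1.0 to 8.72 ± 1.73. Sorbs2 to Sorbs3 rose from 0.387 ± 0.038 to 0.725 ± 0.061. The talin ratio, Tln2 to Tln1, went from 0.0156 to 0.0244, both far below 1. In each of these pairs, and for Ppp1r12b to Ppp1r12a (0.175 and 0.213), exact permutation of the libraries, two-sided, gave p = 0.1, the smallest value that 3 against 3 allows, and an adjusted p of 0.125 over the 10 pairs, so the design could not reach the threshold. The ratio of Lims2 to Lims1 was 1.51 ± 0.09 and 1.42 ± 0.06 (exact permutation p = 0.2) and that of Flnc to Flna 0.0865 ± 0.0088 and 0.0938 ± 0.0045 (exact permutation p = 0.3), with overlapping groups.

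**Figure D5:**
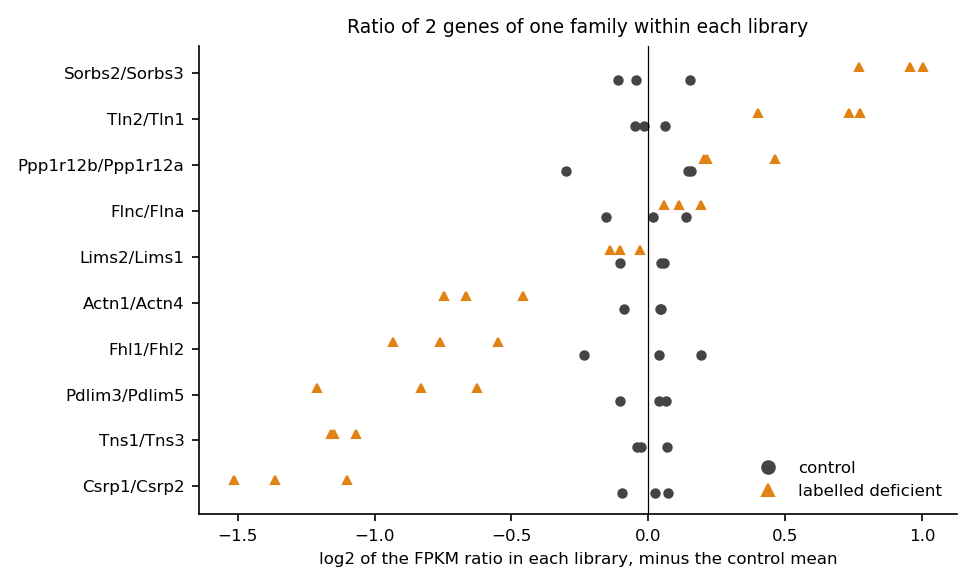
log2 of the FPKM ratio of 2 genes of one family in each library, minus the mean of the controls, for 10 pairs; circles are controls and triangles libraries labelled deficient. Triangles and circles are apart in 8 pairs, with the largest difference of means for Csrp1 to Csrp2, and overlap for Lims2 to Lims1 and Flnc to Flna.

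The genes fell beside markers of smooth muscle. All 10 smooth muscle markers (Acta2, Myh11, Cnn1, Tagln, Des, Actg2, Mylk, Myl9, Tpm2 and Myocd) were called lower. Of all genes tested, 1.99% were called lower and 1.34% higher. The differences of the 10 markers lay between -0.66 and -2.24, and their sum went from between 9645 and 11579 FPKM to between 4106 and 4786 FPKM. Fewer muscle cells in the sample and less of each RNA per muscle cell cannot be told apart in bulk tissue. Of 7 markers of pericytes, 3 were called lower (Cspg4, Kcnj8 and Mcam). In 2 others, Rgs5 and Pdgfrb, every deficient library lay above every control, as in 20.8% of all genes tested, and neither passed. The sum over all 7 went from between 244.8 and 254.6 to between 213.9 and 218.8 FPKM, with Mcam alone going from a mean of 112.7 to 77.7 FPKM. Of 9 epithelial markers tested, 2 were called higher (Krt19 and Cdh1), and the sum over all 10 went from between 782.5 and 890.2 to between 1041 and 1170 FPKM. None of the 8 stromal markers passed by limma, nor any of the 8 endothelial or 8 macrophage markers (1 and 0 with an unadjusted p under 0.05). Of the stromal markers, 5 had an unadjusted p under 0.05. Among these Col1a1, Col3a1, Vim and Hand2 were lower, and Pdgfra was higher, from a mean of 23.6 to 32.6 FPKM. In 62.5% of the stromal markers every deficient library lay below every control and in 12.5% above, against 8.16% and 20.8% of all genes tested. The sum of all 8 stromal markers went from between 6097 and 6621 to between 5387 and 5567 FPKM. In these lists 0 markers were at 0. Of 4 striated muscle markers tested, 2 were called lower (Tnni2 and Ckm), with a sum over 10 markers of between 60.1 and 98.9 FPKM in the controls and between 18.1 and 19.7 FPKM in deficient tissue. The erythroid gene Alas2 was called higher, from 4.15 to 18.7 FPKM (limma adjusted p = 0.030), while 4 haemoglobin genes were listed at 0 in every library. The sum of 8 decidual markers was between 149.0 and 416.6 FPKM in the controls and between 57.8 and 80.3 FPKM in deficient tissue, with 0 of 5 called by limma and 2 at an unadjusted p under 0.05. Not all of these marker calls held with 1 library left out. Myh11, Tagln, Des, Actg2, Tpm2 and Tnni2 passed in each of the 6 such fits, Acta2, Cnn1, Myl9 and Myocd missed in 3, Krt19, Kcnj8 and Mcam in 4, and Mylk, Cdh1, Cspg4, Ckm and Alas2 in 5. For the 12 that missed in any, the highest limma adjusted p lay between 0.067 for Kcnj8 and 0.17 for Mylk, with 0.078 for Krt19 and 0.12 for Cdh1. The part of these cell types in the differences of the 41 genes was not tested.

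Relatives and partners outside the 41 genes did not share one direction. Of 34 other plaque and adhesion signalling genes tested, 2 fell and 2 rose (5.88% each), against 1.99% and 1.34% of all genes tested. Their median difference was -0.04. In 23.5% of them every deficient library lay below every control, and in 14.7% above, against 8.16% and 20.8% of all genes tested. Over all 15 fits between 0 (with the replicate block) and 5 fell and between 0 and 2 rose. Nedd9, a relative of Bcar1, was at 28.1, 31.5 and 22.9 FPKM in control tissue against 57.2, 64.8 and 48.7 FPKM in deficient tissue (1.03, SE 0.15, limma adjusted p = 0.021). Every deficient library lay above every control. Git1, a scaffold that binds paxillin, went from 23.5 to 29.7 FPKM (limma adjusted p = 0.031), and Fermt2, the kindlin of muscle that activates integrins with talin, named after its values were seen, from 76.2 to 45.8 FPKM (limma adjusted p = 0.038). With 1 library left out, Nedd9, Git1 and Fermt2 reached limma adjusted p of 0.095, 0.14 and 0.15.

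None of the 24 other LIM domain genes tested passed with limma, and 6 had an unadjusted p under 0.05, with a median difference of 0.00. Every deficient library lay below every control in 4.17% of them and above in 12.5%, against 8.16% and 20.8% of all genes tested. Over all 15 fits, up to 2 of them fell and up to 2 rose. Of 11 other subunits and kinases of the myosin phosphatase, Rock2, a kinase that inhibits the enzyme, fell from 13.6 to 8.39 FPKM (-0.63, SE 0.10, limma adjusted p = 0.027, up to 0.10 with 1 library left out) and 0 rose, with between 0 and 2 lower and up to 1 higher over all 15 fits. Of the 12 other genes of the actinin, palladin, synaptopodin and leiomodin families, 2 were expressed enough to be tested, and 0 passed with limma or at an unadjusted p of 0.05.

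Promoter sequences bear on genes that move together, so 3 motifs, chosen after the values were seen, were searched on both strands from 250 bases before to 50 bases after each RefSeq start (GRCm38.p6). Of the 41 genes, 32 matched the promoter table, with 48 windows. The CArG box, the site of serum response factor, was found at its full consensus in 4 of the 32 genes (12.5%: Ldb3, Fhl1, Fhl2 and Vcl), against 1.64% of 9690 genes tested that have a window. Only 1 of those 4, Fhl1, was among the 13 matched genes that fell. CATTCC, the MCAT element of TEAD factors, was in 10 of the 32 (31.2%), against 14.3% of genes tested. It was in 30.8% of the genes that fell and 31.6% of the others. The palindrome GNACANNNTGTNC, which the progesterone receptor can bind, was in 0 of the 32 and in 0.351% of genes tested. A match describes letters in a window and no more, and genes with several annotated starts had more letters searched.

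The 250 bases before the start are shown for Fhl1, which had a CArG box and fell, and for Vcl and Fhl2, which had one and did not pass. Capitals mark the CArG box, which starts 102 bases before the start in Fhl1, 227 in Vcl and 31 in Fhl2. The Fhl1 start is 1 of 2 in the table and lies inside the gene, at chrX:56779433-56779682 on the plus strand; Vcl is at chr14:20929148-20929397 on the plus strand; the Fhl2 start is 1 of 2 in the table, each with a box, at chr1:43163962-43164211 on the minus strand.
Fhl1: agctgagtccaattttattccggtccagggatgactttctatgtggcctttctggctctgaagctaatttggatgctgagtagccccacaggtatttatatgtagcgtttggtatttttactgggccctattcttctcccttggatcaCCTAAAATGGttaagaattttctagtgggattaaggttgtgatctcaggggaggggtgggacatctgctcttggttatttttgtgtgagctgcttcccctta
Vcl: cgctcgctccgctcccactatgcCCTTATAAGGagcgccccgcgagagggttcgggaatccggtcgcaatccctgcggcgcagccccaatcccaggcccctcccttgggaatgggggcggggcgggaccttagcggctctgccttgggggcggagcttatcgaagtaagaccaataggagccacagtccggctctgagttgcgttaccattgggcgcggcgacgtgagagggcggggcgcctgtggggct
Fhl2: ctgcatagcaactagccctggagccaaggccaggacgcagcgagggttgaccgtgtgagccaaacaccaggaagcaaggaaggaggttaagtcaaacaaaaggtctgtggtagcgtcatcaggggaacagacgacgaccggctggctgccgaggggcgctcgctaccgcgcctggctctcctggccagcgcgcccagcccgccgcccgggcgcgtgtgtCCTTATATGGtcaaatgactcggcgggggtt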

How the data were processed

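RNA was extracted with TRIzol and libraries followed a standard Illumina procedure, per the labels' protocols. Values were deposited by the authors as FPKM, with a column for each sample, and all 6 columns were matched to samples by name. The submitters' processing notes name cutadapt 2.7, STAR 2.7.0f, DESeq2 1.24.0 and mm10, with no role or order. Not given in the sources used here are the counting program, the annotation, the strand setting and the handling of reads shared by related genes. The split of reads between close relatives such as Lims1 and Lims2 or the filamins, and between overlapping genes, is therefore uncertain.

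limma 3.58.1 in R 4.3.3 (lmFit, eBayes with a mean trend) was fitted to log2(FPKM + 1) of the 12500 genes that averaged 1 FPKM or more, deficient minus control, with no covariate. This scale understates the change of low genes. P-values were adjusted by Benjamini-Hochberg over all genes tested. The code was tested on simulated data. Ratios of family members were compared by exact permutation tests. Positions come from GENCODE M21 (GRCm38, the assembly also called mm10) and promoters from RefSeq. The alternatives were other pseudocounts, filters and scalings, a block for the replicate number, and fits with libraries left out.

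The genes and lists were chosen with earlier results of these data known, so no list was tested as a set. Every one of the 41 genes is accounted for. From each list of other pathway genes, up to 3 genes past the threshold with the smallest p were named, and 1 result is not reported here.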

Additional observations from a re-analysis of the deposited data

How the results depend on the processing

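The median difference of the 41 genes stayed between -0.44 and -0.30 in all 15 fits. The number that fell was 5 with no filter and 5 with the replicate number as a block, and lay between 2 and 17 with libraries left out. Over all genes, 111 of 24964 were called lower with no filter and 112 of 12500 with the block. The number that fell was 14 with a pseudocount of 0.1, 15 with a minimum mean of 5 FPKM, 13 after rescaling, 15 with quantile normalization and 19 with median-of-ratios scaling. In all 15 fits the number that rose was between 0 and 1. Median-of-ratios scaling added Tln1, Vcl, Parva, Tgfb1i1 and Palld. With no filter and with the block, the same 9 calls were lost: Pdlim3, Zyx, Ilk, Tns1, Flna, Actn1, Synpo2, Lmod1 and Ppp1r12a. Flna was also lost with quantile normalization (limma adjusted p = 0.059). The causes were not tested.

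Signs turned for 6 genes that had not passed. Csrp2 was at -0.0467 after median-of-ratios scaling, at -0.0119 after quantile normalization, and between -0.00287 (without deficient 1) and 0.0536 with 1 library left out. Tns2 was at -0.00962 with median-of-ratios scaling and between -0.0168 (without deficient 3, and -0.0155 without control 2) and 0.141 with 1 library left out. In the same fits Ppp1r12b ranged from -0.168 to 0.0243 (without control 1, with 0.00978 without control 3 and 0.00514 without deficient 1), Ldb3 from -0.0544 (without control 3) to 0.299 and Lpp from -0.0846 to 0.00529 (without deficient 3). Pdlim1 was at -0.0513 without control 3 and deficient 3 together. Rescaling to a common sum and median-of-ratios scaling cannot change a ratio within a library, so they do not test the family ratios.

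The shared replicate numbers showed no pairing of the libraries, though 3 libraries per group cannot exclude one. Deviations from the group means of same-numbered libraries correlated at -0.136, 0.0789 and -0.132 across genes. Those of differently numbered libraries correlated at between -0.132 and 0.2. The blocked fit (6 of the 41 genes called) therefore uses numbers that these correlations do not tie together. Library depth is unknown, so how precisely genes near 1 FPKM, such as Tln2, were measured cannot be judged.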

Other observations

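Several of the 41 genes are neighbours. Pdlim3, which fell by 1.07 on the log2 scale, starts 57554 bases beyond the end of Sorbs2, which rose by 0.75, on the same strand of chromosome 8. On chromosome 1, Lmod1 and Csrp1, which both fell, lie 351995 bases apart, and Ppp1r12b, which did not pass, ends 368864 bases before Lmod1. Pdlim2 and Sorbs3, neither of which passed, lie 2786 bases apart on chromosome 14. These pairs were picked after their values were seen.

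The 3 controls were not alike for these genes. Control 3 was the lowest control for 30 of the 41 genes (73.2%), against 52.6% of all genes tested, and control 1 the highest for 25 (61.0%), against 33.4%. Deficient 2 was the highest deficient library for 28 (68.3%), against 39.4%, and deficient 1 the lowest for 24 (58.5%), against 35.8%. Of the 14 genes that fell, control 3 was the lowest control for 11 and deficient 2 the highest deficient library for 11.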
